A study of Mus musculus with 7 samples.

Results

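JUNB regions deep inside gene bodies are stretches of the mouse genome (mm10) with a called peak of the transcription factor JUNB. They lie within a protein-coding gene and far from either end of any such gene. Joining peaks of 4 JUNB libraries wherever 1 bp or more overlapped gave 12655 regions, and the position of a region was the median of its summits. A region was kept when its position lay inside a RefSeq protein-coding gene and more than 10 kb and at most 100 kb from the nearest end of any protein-coding gene. This gave 3527 deep regions, 27.9% of all regions. Of these, 791 (22.4%) were called in all 4 lists and are called common deep regions below. Peak significance chose which peak of a list gave the summit, and no threshold on height was set.

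The libraries came from a mouse embryonic fibroblast line that carries doxycycline-inducible Mef2c, Gata4 and Tbx5 (MGT), the cardiac transcription factors used to turn fibroblasts into cardiomyocyte-like cells, and a Myh6-eGFP reporter of a cardiac myosin gene. All cells received doxycycline at 1 ug per mL and were collected at day 1 of MGT expression, so both groups shared the reprogramming factors and neither was an unchanged fibroblast. By the titles, 2 libraries came from cells given a control siRNA (siControl) and 2 from cells given an siRNA against Chst7 (siChst7), whose product adds sulfate to chondroitin chains. The labels' treatment protocol lists siControl, siJunb and siH1f0 instead, with no mention of siChst7. CUT&RUN, the assay used, cuts and releases DNA around an antibody-bound protein, and the comparison asks where JUNB sat when Chst7 was targeted early in reprogramming. The labels name biological replicates but not separate cultures, so p-values measure only the spread between these libraries, which may be technical, and every library came from the same line. The 3 IgG libraries were not analysed here. Expression was not measured in these files, so neither the knockdown nor the cell type could be checked against transcripts.

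JUNB is a subunit of AP-1, a family of dimers of JUN and FOS proteins that answers to growth factor, stress and adhesion signals. AP-1 dimers bind the heptamer TGANTCA, whose common forms TGACTCA and TGAGTCA are the reverse complement of each other, and in fibroblasts they sit largely at enhancers rather than at promoters. Many enhancers lie in introns, where they may act on the gene that holds them or on another gene, so the host gene named for a region below is its place and not its target.

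Sequence was read only where a deep region overlapped a RefSeq start window (GRCm38.p6, the same assembly as mm10), which holds 250 bases before and 50 bases after a transcript's start. Such windows arise deep inside a gene at inner starts of the host gene and at starts of long noncoding RNA genes. They overlapped 77 deep regions, 2.18% of the total, through 83 windows, of which 54 belonged to protein-coding and 29 to noncoding RNA genes. The next 5 sequences are shown because they hold, or lack, the AP-1 heptamer at deep regions called in 3 or 4 lists. Each runs 5′ to 3′ on the gene's own strand, with TGANTCA in capitals. For the protein-coding genes only the bases before the start are printed.
Ptpre inner start, chr7:135605578-135605827, plus strand: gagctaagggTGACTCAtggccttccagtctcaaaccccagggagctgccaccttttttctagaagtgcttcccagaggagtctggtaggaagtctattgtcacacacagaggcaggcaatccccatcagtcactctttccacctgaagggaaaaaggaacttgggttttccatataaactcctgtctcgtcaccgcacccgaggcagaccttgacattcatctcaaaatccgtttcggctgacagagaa
Sgms1 inner start, chr19:32211014-32211263, minus strand: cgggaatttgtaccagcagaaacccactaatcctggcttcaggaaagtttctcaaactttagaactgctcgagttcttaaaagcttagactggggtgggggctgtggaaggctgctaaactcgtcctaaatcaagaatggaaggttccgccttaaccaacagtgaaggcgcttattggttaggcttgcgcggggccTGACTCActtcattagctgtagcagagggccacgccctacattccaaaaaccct
Gm31771 inside Pam, chr1:97910853-97911152, plus strand: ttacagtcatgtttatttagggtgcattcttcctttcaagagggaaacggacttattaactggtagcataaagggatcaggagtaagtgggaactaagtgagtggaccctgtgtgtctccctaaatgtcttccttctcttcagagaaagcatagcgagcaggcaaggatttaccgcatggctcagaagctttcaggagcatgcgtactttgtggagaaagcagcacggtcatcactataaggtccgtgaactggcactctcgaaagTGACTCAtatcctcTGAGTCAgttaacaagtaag
A130051J06Rik inside Ano6, chr15:95804412-95804711, minus strand: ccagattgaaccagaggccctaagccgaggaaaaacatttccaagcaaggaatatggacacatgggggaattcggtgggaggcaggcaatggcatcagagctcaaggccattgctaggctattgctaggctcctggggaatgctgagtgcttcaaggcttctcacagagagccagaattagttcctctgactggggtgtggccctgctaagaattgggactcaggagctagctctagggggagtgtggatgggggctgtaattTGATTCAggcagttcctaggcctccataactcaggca
Clcn3 inner start, chr8:60954800-60955049, minus strand: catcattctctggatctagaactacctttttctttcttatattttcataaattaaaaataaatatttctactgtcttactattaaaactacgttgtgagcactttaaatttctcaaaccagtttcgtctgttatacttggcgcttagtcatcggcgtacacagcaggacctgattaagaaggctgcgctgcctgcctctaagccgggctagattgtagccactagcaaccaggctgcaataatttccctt

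Ptpre encodes a receptor-type tyrosine phosphatase, and its heptamer lay 240 bases before the inner start. The region over it was common, with fold enrichments of 8.86 and 7.44 in the siControl lists and 12.2 and 7.16 in the siChst7 lists, in replicate order. Fold enrichment is the authors' peak caller's ratio of signal at a peak to its local background, and tests use it only between regions of 1 list. Folds were not normalised between lists, which were of unequal length. This holds for every region below, whichever group had the higher values. The values of a region in the 4 lists are therefore set side by side as a description, and no difference in fold between the siRNA groups was tested. Of the 791 common deep regions, 182 (23%) had both siChst7 folds above both siControl folds and 93 (11.8%) had both below, against 21.9% and 12.6% of all regions called in 4 lists. The siChst7 values lay on either side of the siControl value of 7.44. Sgms1, a sphingomyelin synthase of the Golgi, held TGACTCA 54 bases before its inner start. Its common region had folds of 11.0 and 9.32 (siControl) and 14.2 and 6.66 (siChst7), so the groups overlapped. Gm31771, a noncoding gene inside Pam, had a TGACTCA and a TGAGTCA starting at bases 267 and 281 of its window, both after the start. The region was called in 3 lists, at 5.80 and 7.46 (siControl) and 6.92 (siChst7 replicate 1). The noncoding gene A130051J06Rik lies inside Ano6, a phospholipid scramblase, and carried the less usual form TGATTCA. Its region had 16.3 and 21.1 (siControl) and 13.1 and 14.9 (siChst7), with both siControl values above both siChst7 values in lists of unequal length. Clcn3, a chloride/proton exchanger of endosomes, showed the contrast: its common region, whose position lay inside the window, had 9.55 and 9.67 (siControl) and 25 and 20.3 (siChst7), with both siChst7 values above both siControl values, and these letters held no TGANTCA. No match says only that the heptamer is not in these letters. The positions of the Ptpre, Sgms1, Gm31771 and A130051J06Rik regions lay outside their start windows. Match centres lay 89.5 bp (Ptpre), 267 bp (Sgms1), 86 and 72 bp (Gm31771) and 164.5 bp (A130051J06Rik) from these positions.

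Shorter stretches around the heptamer are given for a further 5 deep regions, 3 of them called in 3 lists and 2 in 2 lists, to show what flanks the match. Each is on the strand of its gene.
Btbd11 inner start, motif at chr10:85598383-85598389, plus strand: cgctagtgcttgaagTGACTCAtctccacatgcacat
Pacsin2 inner start, motif at chr15:83448026-83448032, minus strand: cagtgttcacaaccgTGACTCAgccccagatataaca
Ttc39aos1 inside Ttc39a, motif at chr4:109406323-109406329, minus strand: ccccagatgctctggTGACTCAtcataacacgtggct
Mrtfb inner start, motif at chr16:13358271-13358277, plus strand: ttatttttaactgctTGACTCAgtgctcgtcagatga
Palld inner start, motif at chr8:61591187-61591193, minus strand: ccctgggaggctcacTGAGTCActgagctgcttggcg
Mrtfb is a serum response factor coactivator that follows actin assembly, and Palld encodes the actin-bundling protein palladin. The centre of the match lay 85.5 bp from the region's position in Palld and 167.5 bp from it in Mrtfb. In Ttc39aos1 it lay 32 bp away, in Pacsin2 184 bp and in Btbd11 267 bp.

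Of the 83 windows at deep regions, 23 (27.7%) held TGANTCA on either strand, against 2565 of all 32851 RefSeq start windows (7.81%). The form TGACTCA or TGAGTCA was present in 21 of the 23, and 4 of them held 2 or more matches. Among noncoding RNA windows the share was 12 of 29 (41.4%), against 9.31% of all noncoding windows, and among protein-coding windows 11 of 54 (20.4%), against 6.99% of all protein-coding windows. Windows at intergenic regions 10 to 100 kb from a gene end were all noncoding, and 36 of 87 (41.4%) held the heptamer. That share equals the 41.4% of noncoding windows at deep regions. Windows at regions within 1 kb of a gene end, 913 protein-coding and 82 noncoding, held it in 135 of 995 (13.6%). The region's position lay inside 31 of the 83 windows at deep regions, and 9 of these 31 (29%) held the heptamer. Windows at deep regions called in all 4 lists held it in 3 of 18 (16.7%), and those at regions called in 3 or 4 lists in 8 of 27 (29.6%). The cyclic AMP response element TGACGTCA, which JUN dimers with ATF proteins can bind, was in 0 of the 83 windows and in 588 (1.79%) of all windows. These shares describe starts that happen to lie in deep regions; sequence of the other deep regions was not used here.

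Every list held deep regions in nearly the same proportion, while their number followed the length of the list. The siControl lists called 1761 and 1641 deep regions (mean 1701 ± 84.9, SD, n = 2). Those of the siChst7 group called 2812 and 1325 (mean 2068.5 ± 1051, SD, n = 2). They thus gave both the highest and the lowest number and enclosed the siControl lists. The difference of mean log2 numbers, siChst7 minus siControl, was 0.18, with a two-sided exact permutation p of 1; the smallest p for 4 libraries is 0.333. Without siChst7 replicate 1 the difference was −0.36. Deep regions made up 27.8% and 29.0% of the joined regions in the siControl lists and 28% and 28.7% in the siChst7 lists. The group means were 28.4% ± 0.849 and 28.35% ± 0.495 (SD, n = 2), and their difference of −0.06 percentage points was smaller than the spread between libraries (exact permutation p = 1).

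Deep gene bodies held more JUNB regions per length than intergenic sequence at the same distances. The deep gene bodies covered 525 Mb and the intergenic stretches 618 Mb, from which assembly gaps were not removed. The siControl lists had 3.36 and 3.13 deep regions per Mb, against 2.25 and 2.10 intergenic regions per Mb. The siChst7 lists had 5.36 and 2.53 against 3.56 and 1.72. The ratio stayed between 1.47 and 1.51 in the 4 lists although their lengths differed. The mean difference was 1.19 regions per Mb, higher inside genes in 4 of 4 libraries, with an exact sign-flip permutation p of 0.125, the smallest that 4 libraries allow.

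Within a list, deep regions had slightly lower folds than intergenic regions and higher ones than regions at gene ends. Their median fold was 6.90 and 6.63 in the siControl lists and 6.64 and 6.67 in the siChst7 lists. Intergenic regions 10 to 100 kb from a gene end had medians of 7.12, 6.83, 6.92 and 6.94 in the same order, and regions at most 1 kb from a gene end 6.44, 6.24, 6.24 and 6.31. The mean difference of deep from intergenic regions was −0.243 in fold, lower in 4 of 4 lists (exact sign-flip permutation p = 0.125, the smallest possible). This gap was small beside the spread within a list, whose middle 50% ran from 5.56 to 9.10 in siControl replicate 1. Their best peaks were also narrower, with median widths of 434, 375, 460 and 403 bp against 443, 399.5, 467 and 423 bp (mean difference −15.1 bp, lower in 4 of 4 lists, exact permutation p = 0.125). Of the 500 best regions in each list, 123, 141, 154 and 133 were deep regions. These were 24.6%, 28.2%, 30.8% and 26.6%, near the 27.8%, 29.0%, 28% and 28.7% of all regions in the same lists.

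**Figure D1:**
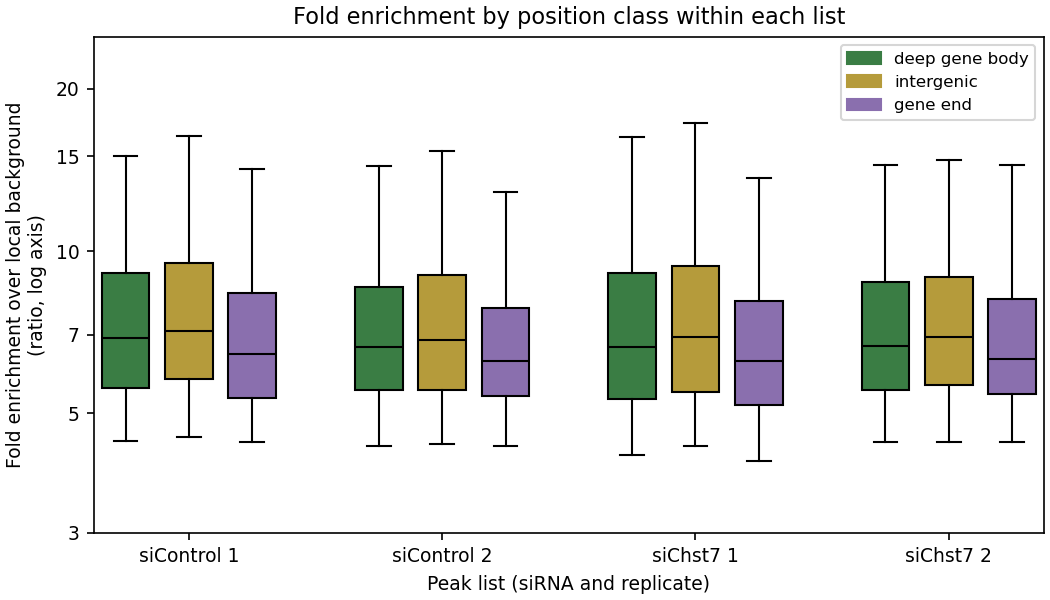
Fold enrichment (the authors' ratio over local background) in each of the 4 lists for deep, intergenic and gene end regions, on a log axis; boxes run from the 25th to the 75th percentile over the regions of a list with a line at the median, and whiskers from the 5th to the 95th. The median of deep regions lies below that of intergenic regions and above that of gene end regions in each list, and the spreads overlap widely.

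Most deep regions were not shared by all lists. Of the 3527, 1598 (45.3%) were called in 1 list, 637 (18.1%) in 2, 501 (14.2%) in 3 and 791 (22.4%) in 4, against 46.7%, 17.9%, 13.3% and 22% over all regions. These shares were close to those of the whole set. A single list, siChst7 replicate 1, held 991 of the single-list regions alone, 28.1% of all deep regions. The other lists held 279 (siControl replicate 1), 207 (siControl replicate 2) and 121 (siChst7 replicate 2) alone. Common deep regions made up 44.9% and 48.2% of the deep regions in the siControl lists and 28.1% and 59.7% in the siChst7 lists. The intergenic shares were 48.6%, 52.2%, 30.7% and 63.5%, a mean difference of −3.51 percentage points, with deep regions lower in 4 of 4 lists (exact permutation p = 0.125; the 4 values rest on the same common regions). Common deep regions were also the higher ones: their median folds were 8.97, 8.08, 10.7 and 7.68, against 5.42, 5.52, 5.55 and 5.37 for the single-list regions of the same lists. A common region had to pass the calling threshold in all 4 lists, so this order is in part built into the selection. Summits of the 791 common regions agreed to a median range of 191 bp over the 4 lists, and 250 (31.6%) lay within 100 bp.

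Between the siRNA groups, most regions called in both libraries of 1 group were found again in the other. Both siControl lists shared 1122 deep regions. Of these, 791 (70.5%; 67.7 to 73.2 by the exact Clopper-Pearson method at 95%, for counting error alone) stood in both siChst7 lists, 1066 (95%) were in at least 1, and 56 (4.99%) were in neither. Both siChst7 lists shared 1152 deep regions, of which 791 (68.7%, interval 65.9 to 71.3) were in both siControl lists, 1017 (88.3%) in at least 1 and 135 (11.7%) in neither. The 56 siControl-only regions were 1.59% of deep regions, and the same count over all regions was 203 of 12655 (1.6%). The 135 siChst7-only regions were 3.83%, against 491 of all regions (3.88%). Both shares were close to the background. Pairs of libraries across the groups gave numbers both above and below these: siControl replicate 1 and siChst7 replicate 1 alone shared 207 deep regions and siControl replicate 2 and siChst7 replicate 1 alone 204, whereas siControl replicate 1 with siChst7 replicate 2 had 15 and siControl replicate 2 with siChst7 replicate 2 had 20. Signal too weak for a list's threshold leaves no call. With a library left out, its group was represented by its 1 remaining list, so a call or an absence was asked of that list alone. That looser rule by itself raises the counts, so they do not measure stability. Without siChst7 replicate 2 there were 73 siControl-only and 1134 siChst7-only regions, and without siControl replicate 2 there were 344 and 225. Without siControl replicate 1 they were 268 and 274, and without siChst7 replicate 1 they were 309 and 281.

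**Figure D2:**
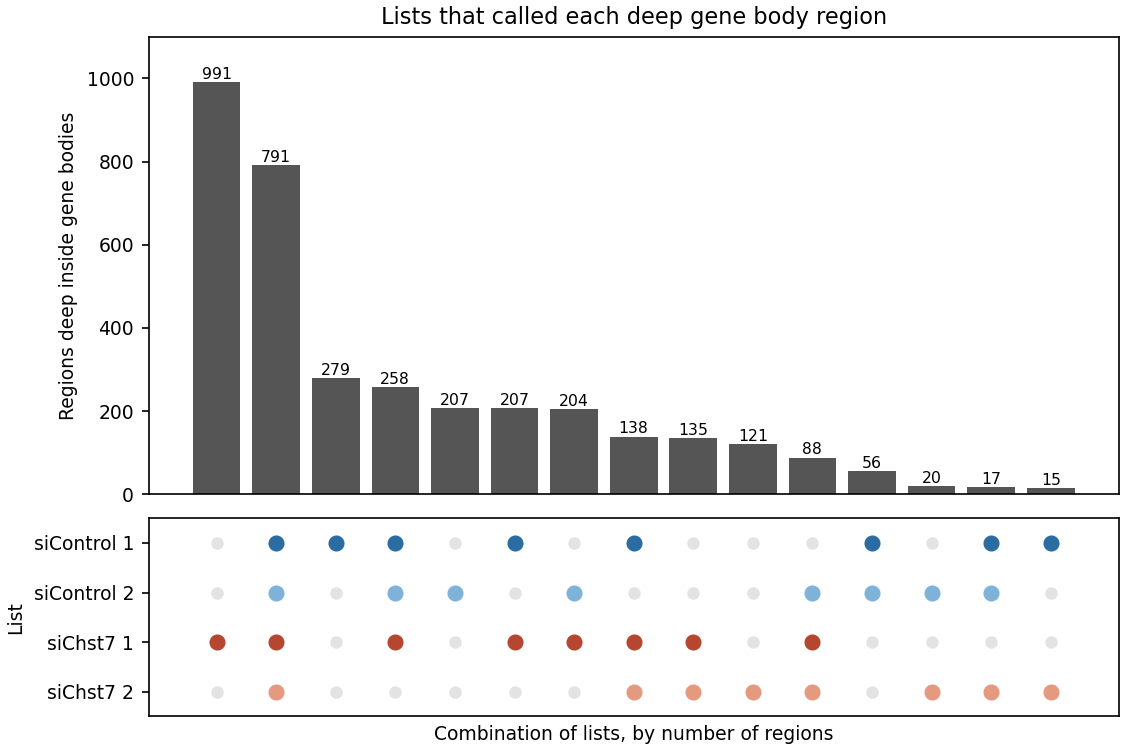
Number of deep regions in each combination of the 4 lists, with filled marks naming the lists of a combination. The 991 regions of siChst7 replicate 1 alone and the 791 in all 4 lists are the tallest bars, and the pairs that make up a siRNA group have 56 and 135.

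The group-only regions were of low height. The best-ranked siControl-only deep regions lay in Lrrk2, a kinase of membrane traffic, with folds of 8.93 and 11.6 (chr15:91690491-91691183), and in Myo5a, an actin-based motor of vesicles, with 9.66 and 9.94 (chr9:75124293-75124562). Rmdn2 (9.45 and 8.29), Pax8 (9.02 and 7.13) and Yes1, a Src family kinase (7.35 and 7.47), followed. The best siChst7-only regions lay in Galntl6, a member of a glycosyltransferase family (10.2 and 10.1, chr8:57800130-57800534), and in Pacsin2, which shapes membranes in endocytosis (11.5 and 8.83, chr15:83417311-83418136). Poln, a DNA polymerase (9.63 and 7.58), 2900026A02Rik (11.9 and 5.82) and Atg7, an enzyme of autophagy (9.66 and 6.59), came next. Median folds were 6.37 and 5.59 for the siControl-only and 6.04 and 5.68 for the siChst7-only regions, and the highest were 11.6 and 11.9. Of the 57 host genes of siControl-only regions, 18 (31.6%) also held a common deep region, and so did 50 of 133 (37.6%) for siChst7-only regions. Both shares were near that of all hosts, as 625 of the 1832 genes hosting a deep region of any list held a common one. Actn4 held 2 of the former. Arid5b, Gse1 and Ube4b each held 2 of the latter. When 50% reciprocal overlap was asked for, the regions of Lrrk2, Pax8 and Poln no longer held peaks of 2 lists, and with joined summits (100 bp on each side, in place of whole peaks) that of Pacsin2 did not.

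The best-ranked common deep region lay in Commd10, whose product works in endosomal sorting, with 55.0 and 81.3 (siControl) and 101.5 and 91.0 (siChst7), both siChst7 values above both siControl values. Src, the adhesion kinase, followed with 33.5 and 42.8 (siControl) and 78.5 and 40.6 (siChst7), where the groups overlapped. The third was in Baiap2, an adaptor of actin assembly. It had 46.8 and 44.4 (siControl) and 44.5 and 36.5 (siChst7) at chr11:119975473-119976782. The region in Nfatc2, a calcineurin-dependent transcription factor that partners with AP-1, had 32.6 and 34.2 (siControl) and 42.3 and 31.8 (siChst7) at chr2:168517594-168519098. In both genes the values of the groups overlapped. Daglb, a diacylglycerol lipase, had 31.2 and 33.0 (siControl) and 37.1 and 23.7 (siChst7) at chr5:143475017-143476120. Eya4, a transcriptional coactivator and phosphatase, had 30.2, 28.9, 39.5 and 26.5 at chr10:23176824-23178272, in the order siControl replicates and then siChst7 replicates. Tns1, the focal adhesion protein tensin, had 30.9, 26.9, 31.0 and 26.0 (chr1:73997996-73999439). The adaptor Sh3bp2 had 32.7, 25.5, 32.9 and 21.1 (chr5:34534894-34536610). Map3k4, a kinase upstream of p38 and JNK, had 32.6, 26.0, 25.5 and 16.6 (chr17:12275082-12276423), and there both siChst7 values lay below both siControl values, in lists of unequal length. Shb, an adaptor of tyrosine kinase receptors, had 29.1, 31.7, 27.9 and 24.0 (chr4:45489253-45490119), again with no overlap of the groups. Tns1 with 50% reciprocal overlap and Sh3bp2 with joined summits no longer held peaks of all 4 lists in 1 region.

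**Figure D3:**
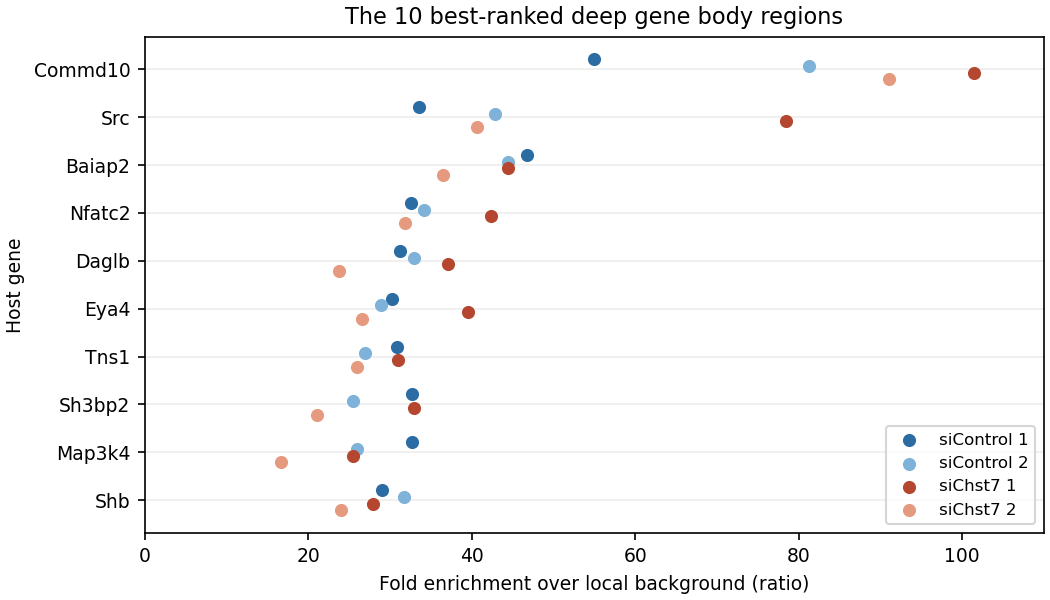
Fold enrichment of the 10 best-ranked common deep regions, named by host gene, with 1 point for each library. The libraries of both groups interleave in most of the regions, and the Commd10 region is the highest in every list.

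Deep regions lay almost evenly between the ends of their host genes. The common deep regions farthest from any gene end lay in Camk1d, a calcium-dependent kinase (99.9 kb, folds 24.6, 17.1, 22.4 and 10.7, chr2:5613873-5615602), Med13l (99.6 kb), Elp4 (99.2 kb), Macf1, a linker of microtubules and actin (98.9 kb), and Pakap (98.6 kb). Folds at Med13l ran from 4.76 to 7.69 and at Macf1 from 10.3 to 17.6, and so differed although the distances were alike. The Med13l region held peaks of 3 lists under either other way of joining. Strand was known for 7832 of the 9886 genes that can hold a deep region (79.2%), which left 2804 deep regions with a strand and a single host. Of these, 1497 (53.4%) lay nearer the 5′ end, and of the common ones 321 of 617 (52.0%). The share was 52.7% and 51.5% in the siControl lists and 53.5% and 52.5% in the siChst7 lists, against 50% of the deep sequence. At the 10 kb limit, regions in Niban2, Smad3 and Nbeal1 lay just inside and regions in or near Rarres1, Fhod3 and Gm4606 just outside (9.96 to 9.99 kb). The Smad3 region was common, with folds of 9.88, 6.55, 9.23 and 6.31. Niban2 (5.19 in 1 list), Rarres1 (4.07), Fhod3 (4.04) and Gm4606 (4.2) were single-list regions, and Nbeal1 had 6.83 and 8.49 in 2 lists. At the 100 kb limit, Adcy8 (5.46 in 1 list), Camk1d and Slc4a4 (4.25, 5.80 and 7.76 in 3 lists) lay inside. Hs6st2 (5.15 in 1 list), Rap1gap2 (8.96 to 15.8 in 4 lists) and another region of Eya4 (5.19 in 1 list) lay outside.

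Common deep regions were found on every autosome and were rare on the sex chromosomes. Per Mb of deep gene body, chromosomes 8, 5 and 15 had the most, at 2.30, 2.17 and 2.12. The X chromosome had 7 in 23.6 Mb, 0.296 per Mb. Y had 0 in its 0.716 Mb, and the lowest autosome was chromosome 14 with 0.761. Counting deep regions of any list, X had 1.61 per Mb, against 4.80 on chromosome 14 and 9.60 on chromosome 8. Chst7 itself lies on X, and its 19.9 kb of deep gene body held 0 regions in any list.

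A total of 625 of the 9886 genes with deep sequence (6.32%) hosted a common deep region, and 1832 (18.5%) hosted a deep region of any list. Regions called in both siControl lists were hosted by 818 genes (8.27%) and those called in both siChst7 lists by 849 (8.59%). The median number of common deep regions per gene was 0, and 499 genes had 1, 95 had 2, 21 had 3, 6 had 4, 3 had 5 and 1 had 6. Genes with longer deep sequence hosted one more often, from 0.716% of genes with under 10 kb of it to 16.1% of genes with 100 to 200 kb, and it was 14.9% of the genes with over 200 kb. Per Mb the values were 1.62 and 1.43 in those size classes, and 0.623 in the 67 genes with over 200 kb. In the 126 genes with 2 or more common deep regions, neighbours were a median of 13.8 kb apart (middle 50%, 3.66 to 41.4 kb), and 70 of 172 neighbouring pairs were within 10 kb.

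Arid5b, a chromatin-binding regulator of mesenchymal and fat cell fate, held 6 common deep regions, more than any other host. It held 7 and 10 deep regions in the siControl lists and 12 and 9 in the siChst7 lists, 14 in all. The best had folds of 12.3, 19.0, 24.9 and 13.7 at chr10:68156402-68157351, and the lowest of the 6 had 3.93 to 5.90. Cubn, which encodes the endocytic receptor cubilin, had 5, of which the best had 22.2, 14.1, 23.3 and 22.7 (chr2:13409436-13411565). Arhgap10, a GTPase-activating protein, had 5, with 24.5, 14.9, 28 and 12.1 at the best (chr8:77494063-77495074). Zfp469, a zinc finger gene tied to collagen of the cornea, had 5, the best at 9.88, 11.3, 17.4 and 13.9 (chr8:122224442-122226141). Bicral, a subunit of a SWI/SNF chromatin remodelling complex, Creb3l2, an endoplasmic reticulum bound bZIP factor, Col4a2, Nsmce2, a SUMO ligase of DNA repair, Lpp, a zyxin family adhesion protein, and Tead1, a DNA-binding partner of YAP, had 4 each. In Bicral all 4 fell within 10.4 to 23.5 kb of the nearest end, the best at 14.8, 16, 21.5 and 12 (chr17:46866363-46867219). The Lpp gene is 599 kb long, its middle lies over 100 kb from either end and could hold no deep region, and its 4 common regions lay between 34.7 and 97.9 kb from its 5′ end. Nsmce2 had 14 deep regions of any list, 10 and 8 in the siControl lists and 12 and 6 in the siChst7 lists.

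The highest densities among genes with at least 3 were in Fez2, an adaptor of kinesin transport (3 in 21.6 kb, 139 per Mb), Pik3r5, a regulatory subunit of phosphoinositide 3-kinase gamma (65.6 per Mb), Bicral (55.3), Myh9, nonmuscle myosin heavy chain (48.7), and Abl2, a tyrosine kinase of actin remodelling (42.2). The longest deep gene bodies with no deep region in any list were Dmd (720 kb), Agbl4 (387 kb), Ctnna2 (371 kb), Adgrb3 (360 kb) and Astn2 (360 kb). Dmd encodes dystrophin of muscle, and Ctnna2, Adgrb3 and Astn2 are known from neurons.

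**Figure D4:**
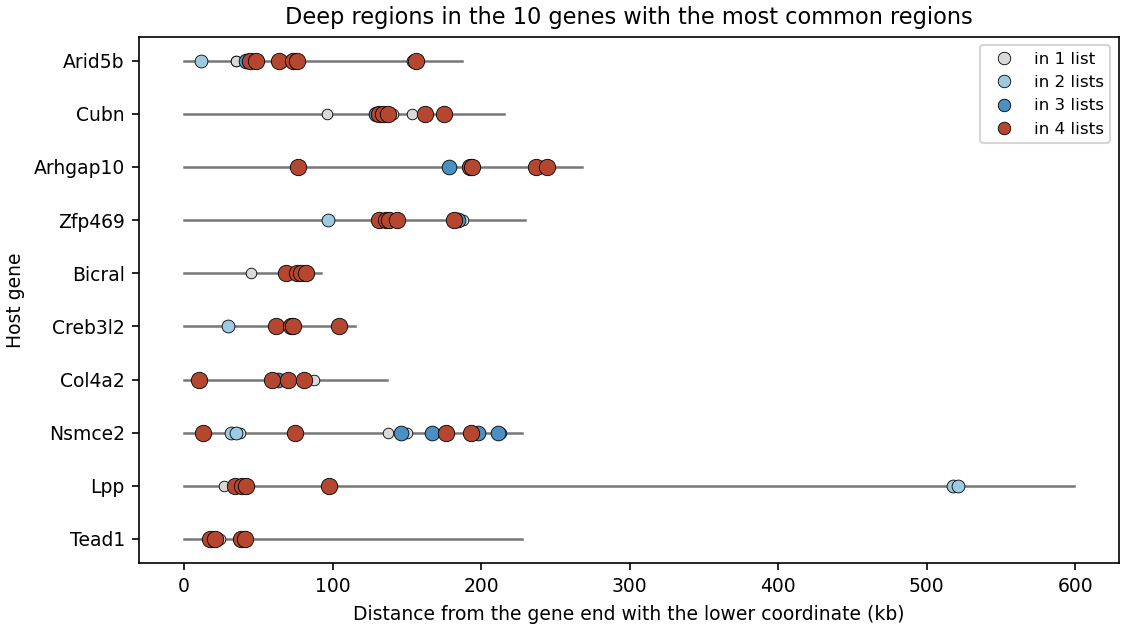
Deep regions along the 10 host genes with the most common deep regions, as distance in kb from the gene end with the lower coordinate, with size and colour giving the number of lists. In Bicral the common regions lie within 24 kb of an end, and in Lpp, whose middle could hold no deep region, they lie on the side of the lower coordinate.

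Genes of adhesion and of the actin cytoskeleton were frequent hosts of common deep regions. In the list of integrins and focal adhesion genes, 11 of 32 genes with deep sequence (34.4%) hosted one, against 6.32% of all genes, and the list had 18 common regions, 6.39 per Mb against 1.5 for all genes. Genes of the list had a median of 74.8 kb of deep sequence, against 28.7 kb for all genes that can hold a deep region, and the median number of common deep regions per gene was 0 in this and in each of the other lists, as over all genes. The hosts were Lpp with 4, Tns3 with 3, Cd44 and Parva with 2 each, and Bcar1, Src, Fermt2, Pdlim5, Nedd9, Tns1 and Tln2 with 1 each. No integrin gene hosted a common deep region. Itgav, Itgb1, Itgb5, Itgb6, Itga1 and Itga5 had deep regions in fewer lists. Itga2, Itga3, Itga4, Itga6, Itga7, Itga8, Itga9, Itga11, Itgb3 and Itgb8 had 0 in any list, as had Vcl, Tln1 and Fermt1. The best region of Cd44, the hyaluronan receptor, had 13.7 and 9.73 (siControl) and 18.2 and 7.44 (siChst7), and the groups overlapped. Bcar1, the scaffold p130Cas, had 10.7 and 6.58 (siControl) and 19.9 and 12 (siChst7), with both siChst7 values above both siControl values. With 50% reciprocal overlap the number of host genes was 7.

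Of 30 actin and myosin genes, 11 (36.7%, against 6.32% of all genes) hosted a common deep region, 4.59 per Mb against 1.5 for all genes. Myh9 had 3, and Actn1, Actn4, Enah, Palld, Fmnl2, Ssh1, Msn, Mical2 and Limch1 were among those with 1. Genes of the list had a median of 96.6 kb of deep sequence, against 28.7 kb for all genes. Actn4, an actin crosslinker, had folds of 18.0 and 16.1 (siControl) and 20.4 and 14.3 (siChst7), and the groups overlapped.

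Basement membrane and fibrillar matrix genes were listed apart, and the difference between the lists was not tested. Of 20 basement membrane genes, 4 (20.0%, against 6.32% of all genes) hosted common deep regions. Col4a2 had 4 and Col4a1, its neighbour and partner chain of type IV collagen, had 3. Lamc1, a laminin chain, had 2 and Hspg2, perlecan, had 1, which gave 5.06 per Mb, with 7 of the 10 regions at the neighbouring Col4a1 and Col4a2. At Lamc1 the best region had 18.4 and 11.0 (siControl) and 14.3 and 10.6 (siChst7). Of 28 genes in the list of fibrillar collagens and matrix glycoproteins, Col8a1 and Loxl1 (7.14%) hosted a common one, close to the 6.32% of all genes, at 1.01 per Mb. Neither is a fibrillar collagen gene. Col1a2, Col3a1, Col5a1, Col5a2, Col5a3 and Col11a1 hosted no common one. The list had 4 host genes at a limit of 5 kb and 1 at a limit of 20 kb or with joined summits. Col3a1, Fn1, Fbn1, Fbn2, Col5a2, Col6a3, Tnc and Postn had 0 deep regions in any list. Col1a2 had one in 3 lists (6.41, 4.97 and 9.81), and Ltbp2 a siControl-only one.

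Transcription factors of mesenchymal cells were frequent hosts. Of 44 genes, 13 (29.5%, against 6.32% of all genes) hosted a common deep region, 24 regions and 4.04 per Mb against 1.5 for all genes. Besides Arid5b and Creb3l2 these were Creb3l1, Ets1 and Runx1 with 2 each, and Twist2, Elk3, Zeb2, Tcf7l2, Ebf1, Tcf4, Nfib and Foxp1 with 1 each. Prrx1, Zeb1, Runx3, Nfia, Nfix, Ebf2, Ebf3 and Bnc2 were among the genes with 0 deep regions in any list. Genes of the list were long, with a median of 179 kb of deep sequence against 28.7 kb for all genes. Of all genes with 100 to 200 kb of it, 16.1% hosted a common deep region. Ets1, an ETS factor that binds beside AP-1 at many enhancers, had 12.9 and 13.7 (siControl) and 15 and 9.54 (siChst7). Runx1 had 12.5 and 6.87 against 15.3 and 9.42. The values of the groups overlapped in both genes. The count of 13 became 7 when summits with 100 bp on each side were joined instead of whole peaks. In the AP-1 family and related bZIP genes, which are mostly short, 2 of the 10 with deep sequence hosted a common one (20%, against 6.32% of all genes). These 10 had a median of 36.3 kb of deep sequence, against 28.7 kb for all genes. The hosts were Bach2, a repressor at AP-1-like sites, with 2 (best 17.4 and 15.5, siControl, and 21.9 and 10.3, siChst7), and Nfe2l2 with 1. Junb itself is 1.84 kb long and has no deep sequence.

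Signalling lists ranged from 0.933 to 5.42 common deep regions per Mb, against 1.5 for all genes. Of all genes with deep sequence 6.32% hosted one, the background for each share in this paragraph. Median deep sequence of the lists named here ran from 32.2 kb (inflammatory) to 104 kb (membrane traffic), against 28.7 kb for all genes. Of all genes with 30 to 100 kb of deep sequence 8.13% hosted one, and of those with 100 to 200 kb 16.1%. Of 31 TGF-beta and BMP genes 4 (12.9%) hosted a common deep region: Smad3 and Tgfbr3 with 2 each, and Acvr1b and Smurf1 with 1. Smad3, the transcription factor of TGF-beta signalling, had 5.90 and 8.13 (siControl) and 15.3 and 14.3 (siChst7) at chr9:63677407-63678739, with both siChst7 values above both siControl values. Its other common region, named at the 10 kb limit, had overlapping groups, so the gene's regions did not share an order. Of 21 Hippo genes, 4 (19.0%) hosted one: Tead1 with 4 and Vgll4, Amotl1 and Taok3 with 1 each. Of 33 MAPK genes, 6 (18.2%) did: Dusp10 with 2, and Map3k4, Map3k5, Dusp16, Spred2 and Mapkapk3 with 1 each, a set that includes the phosphatases that switch the kinases off. That count was 3 with 50% reciprocal overlap. Of 27 inflammatory and NF-kB genes, 5 (18.5%) did, 5.42 per Mb: Il1r1 with 2, and Il1rl1, Il6ra, Traf3 and Lifr. The best Traf3 region had 12.2 and 20.4 (siControl) and 20.4 and 13.9 (siChst7). The count was 3 with joined summits. Receptor tyrosine kinases, which feed AP-1, had 3 of 34 (8.82%), Mertk, Insr and Igf1r, and 0.933 per Mb, and 5 genes without siControl replicate 2. Wnt and guidance receptors had 3 of 41 (7.32%), Plxna2 with 3 and Ntn4 and Sema5a with 1 each, and 7 genes without siChst7 replicate 2. With a library left out, a common region was one called in every remaining list, which is a looser rule. Cell cycle genes had 3 of 17 (17.6%) and membrane traffic genes 8 of 42 (19.0%), among them Rab31 with 23.8 and 15.5 (siControl) and 20.4 and 14.5 (siChst7). Cell cycle hosts were 1 under either other way of joining, receptor tyrosine kinase hosts and AP-1 hosts were 1 with joined summits, and membrane traffic hosts were 5 at a limit of 20 kb.

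**Figure D5:**
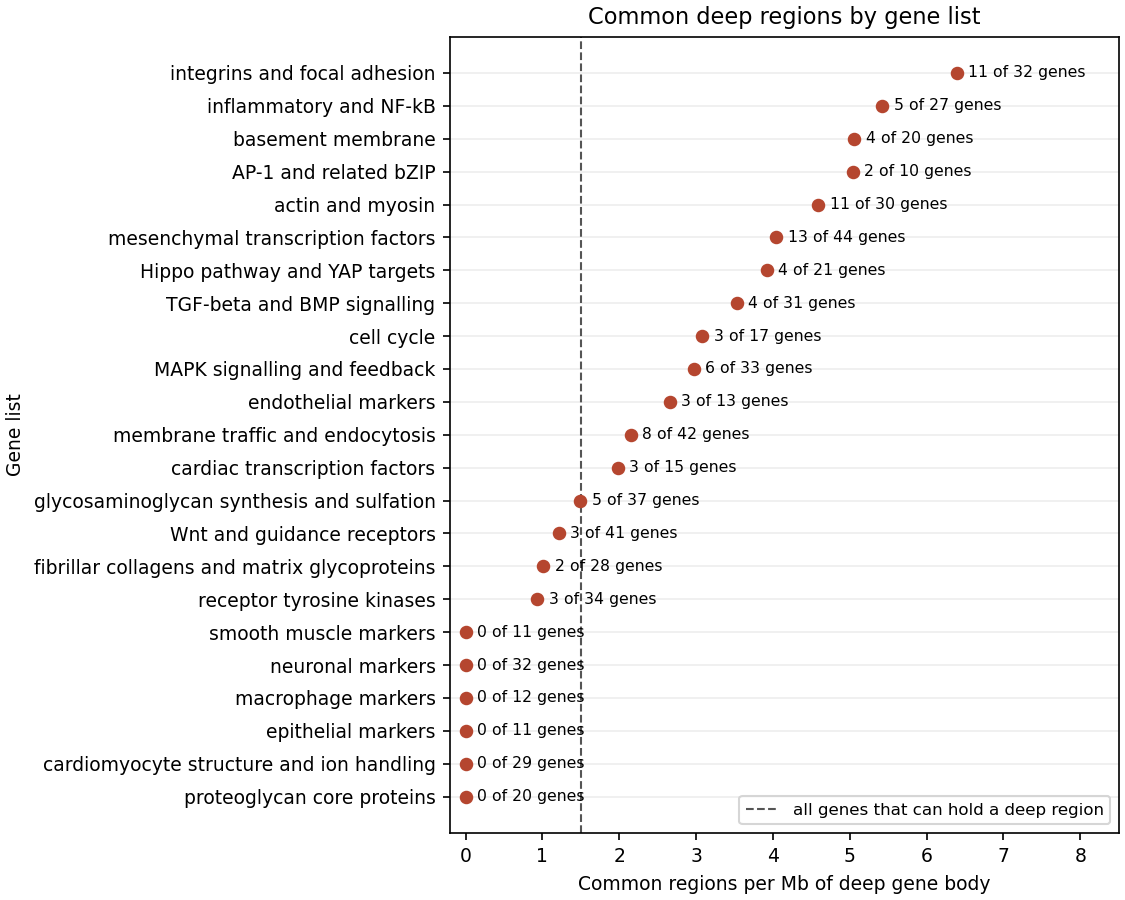
Common deep regions per Mb of deep gene body for the gene lists, with the number of host genes of those that can hold one, beside the value for all genes. Adhesion, inflammatory, basement membrane and AP-1 lists lie above 5 per Mb and cardiomyocyte, proteoglycan, neuronal, macrophage, epithelial and smooth muscle lists are at 0.

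In the glycosaminoglycan pathway, to which Chst7 belongs, 5 of 37 genes (13.5%, against 6.32% of all genes) hosted a common deep region. The list had 1.49 per Mb, close to the 1.5 of all genes. They were Chst3 and Chst11, sulfotransferases of chondroitin, Ust, which sulfates uronic acid, Ndst1, of heparan sulfate, and Ext1, its polymerase. Chst3, which adds sulfate at the same position of chondroitin as Chst7, had 9.49 and 12.5 (siControl) and 13.6 and 8.96 (siChst7), and Chst11 7.71 and 8.73 against 6.56 and 5.49. The groups overlapped at Chst3 and not at Chst11. The 37 genes included Chst7 with 0. Under other ways of joining the list fell to 3 host genes, and with a limit of 20 kb to 1. Of 20 proteoglycan core proteins 0 hosted a common one (up to 1.90 per Mb allowed by a count of 0), with 2 such genes when the limit was 5 kb.

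Genes of the contractile cardiomyocyte hosted no common deep region. Among 29 cardiomyocyte structure and ion handling genes with 3.51 Mb of deep sequence, 0 hosted a common deep region, which allows up to 0.854 per Mb for counting error alone. Deep regions in fewer lists lay in Myoz2, Myl4, Casq2 and Myom2, and Casq2, calsequestrin of the sarcoplasmic reticulum, had 9.02 (siControl replicate 1), 11.3 and 5.05 (siChst7). Without siControl replicate 2 or without siChst7 replicate 2 the number of host genes was 1, under the looser rule of a call in every remaining list. Ttn, Ryr2, Cacna1c, Slc8a1 and Dmd had 0 in any list. Of 15 cardiac transcription factor genes 3 (20%, against 6.32% of all genes) hosted a common one, Mef2c, Mrtfa and Ppargc1a. The list had 1.98 common deep regions per Mb, against 1.5 for all genes. Its median deep sequence was 125 kb, against 28.7 kb for all genes. The Mef2c region lay at chr13:83604070-83604534 with 4.79 and 4.74 (siControl) and 10.2 and 7.19 (siChst7), so that both siChst7 values were above both siControl values. Mef2c is also one of the induced factors. Gata4, Tbx5 and Myh6 had 0 deep regions in any list.

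Markers of other cell types that a fibroblast culture could hold were listed by cell type, and differences between these lists were not tested. Of 32 neuronal genes with 5.12 Mb of deep sequence 0 hosted a common deep region (up to 0.586 per Mb), and Elavl4, Map2 and Syt1 had deep regions in fewer lists. Macrophage (12 genes), epithelial (11 genes) and smooth muscle (11 genes) markers had 0, with limits of 2.95, 5.62 and 4.30 per Mb set by their short deep sequence. These limits lie above the 1.5 per Mb of all genes and the 2.66 of endothelial markers. A count of 0 in these lists therefore cannot show a difference from either. Endothelial markers had 3 of 13 (23.1%, against 6.32% of all genes), Cdh5, Vwf and Flt1, at 2.66 per Mb against 1.5. Their median deep sequence was 94 kb, against 28.7 kb for all genes. Pecam1, Kdr, Emcn, Fli1, Flt4 and Eng had 0 deep regions in any list, and Ptprb, Tek, Erg and Mecom had deep regions in fewer lists. Cdh5, VE-cadherin, had 9.28 and 11.6 (siControl) and 16.7 and 8.20 (siChst7). The lists hold no expression, so the presence of endothelial cells was not tested.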

How the data were processed

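JUNB was mapped by CUT&RUN in 2 siControl and 2 siChst7 libraries, and 1 deposited peak list for each library was used. Reads were processed with Bowtie2 and MACS3 on mm10, per the submitters' processing notes. Versions, settings and the control for peak calling are not given in the sources used here. Each deposited peak has a fold, a ratio over local background, a score, and a p-value and q-value as −log10 that the authors' peak caller gave. The lowest −log10 q was near 2 in each deposited list. The lists hold no read counts, so depth is unknown beyond the 30 M reads that the labels state. Limits for a count of 0 use 3 counts and, like intervals, cover counting error only.

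Peaks overlapping by at least 1 bp were joined, and the best peak by q in each list gave a region's fold, width and summit. Coordinates are 1-based. Genes came from a RefSeq table of GRCm38.p6 with 21900 protein-coding genes. Strand came from its start windows. Deep gene body is sequence inside a gene, more than 10 kb and at most 100 kb from any protein-coding gene end. The 24 gene lists had 860 entries, all matched. The members and lists were chosen with earlier results of these data known. Groups were compared by exact, two-sided permutation over libraries, and position classes by exact sign flips of the within-list differences. Gene lists were described without a test.

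Named regions were the 10 common ones with the best mean rank, the 5 farthest from a gene end, the 5 best of each group-only class and 3 on each side of each limit. Named genes were the 10 hosts with the most common regions, the 5 densest, the 5 longest without a region, up to 4 for each list, Chst7, Junb, Mef2c, Gata4, Tbx5 and Myh6. Some items that the rules name are not reported here. Further list members, window genes and second regions were named after their values were seen. The planned AP-1 search in the regions was not run and exon and intron positions were not used, as both need a genome. Code was tested on simulated peak lists. Calculations used Python 3.11.15 with Matplotlib 3.10.9, pandas 2.3.3, SciPy 1.17.1 and NumPy 2.4.6.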

Additional observations from a re-analysis of the deposited data

How the results depend on the processing

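Alternatives changed the joining (50% reciprocal overlap, or summits widened by 100 bp), the peaks used (q up to 0.001, fold from 5, equal list length, autosomes and X), the inner limit (5 or 20 kb) and the libraries (each left out in turn). Leaving out peaks under 3-fold was added after seeing the data. The differences of deep from intergenic regions in fold, width, shared calls and density kept their direction in every alternative run, with ranges of −0.264 to −0.18, −17 to −7.13 bp, −4.45 to −1.26 percentage points and 0.776 to 1.31 regions per Mb. The group comparisons did not. The siControl-only count was 93 with reciprocal overlap, 104 with summits, 90 with equal list length and 37 at 20 kb. With a library left out it was 73 to 344 and the siChst7-only count was 225 to 1134. Those counts rest on a looser rule, because the group that lost a library then had a single list. Equal list length left 2327 deep regions. The group difference in share turned to 0.269 percentage points with equal list length and 0.384 at 20 kb, and ran from −0.64 to 0.484 with a library left out, while the log2 difference in number ran from −0.36 to 0.73. The cause was not tested. Replicate numbers were not taken as pairs. Over deep regions, the called-or-not deviations of same-numbered libraries had a correlation of −0.0361. Calls cut at a threshold cannot show whether same-numbered libraries were prepared together. The replicate block gave the same 0.18 and −0.06 with exact permutation p = 1. Of the 10 best-ranked regions 9 kept all 4 lists under either other way of joining (Tns1 or Sh3bp2 did not). The AP-1 motif alternatives were not run. Depth per library is unknown, and no fold was tested between groups.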

Other observations

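Deep regions in RefSeq start windows also included genes outside the lists. Lmna, which encodes lamins A and C of the nuclear envelope, Sun1, its partner across the envelope, Srpk2, Jmjd1c, Sertad2, Ppp1r12b and Dixdc1 had inner start windows that overlapped deep regions called in all 4 lists, and none of these windows held TGANTCA before the start. The noncoding gene Gm13415 inside Pax8 had TGAGTCA at 220 and 100 bases before its start, within the siControl-only region of Pax8. A single deep region had a fold under 3, in Tmem267, with 2.47 and 1.80 in the siControl lists, and it was in neither siChst7 list.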
